A study of Homo sapiens with 26 samples.

Results

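K562 footprint libraries depleted of ribosomal RNA with riboPools were compared with K562 footprint libraries that were not depleted. K562 is a human cell line from a chronic myeloid leukaemia with erythroid features. The 4 libraries, 2 for each side, are part of the 26 in the series and were chosen by their titles and their labelled depletion strategy. Both groups belong to the same count table, carry no labelled drug or genotype, and were lysed with cycloheximide, digested with RNase I to monosomes and size-selected at 20 to 34 nt according to the sample labels. Cycloheximide, the nuclease and the size selection are thus shared by both sides. The series as a whole sequenced footprints of human cell lines under several kits for removing rRNA, and by its title it asks whether depletion by nuclease distorts the footprint counts. riboPools do not rely on a nuclease, so this comparison shows how close a depletion with probes and beads came to the undepleted sample. Nothing in the labels says that libraries 1 and 2 of a group came from separate cultures. Every p-value thus rests on counting error and the spread between these libraries, which may be technical and was estimated largely across genes. The riboPools libraries are those with the standard elution, and 2 further riboPools libraries labelled with a cold elution are set beside them later.

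Ribosome profiling sequences the short mRNA fragments that a ribosome shields from nuclease, so the count on a coding sequence reflects how many ribosomes were on it. The same nuclease also cuts the rRNA of the ribosome itself, and these fragments share the size of footprints and take up sequencing reads. riboPools are pools of biotinylated DNA probes that hybridise to rRNA and are pulled out on streptavidin beads. A probe that also bound a footprint would remove it, and footprint counts are therefore set against the undepleted sample. The mitochondrial genome encodes core subunits of the respiratory chain and of ATP synthase, and these mRNAs are translated inside the organelle by its own ribosomes.

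The riboPools libraries held more counts on coding sequences. The undepleted libraries had 1135460 and 1031889 counts, and the riboPools libraries had 2291924 and 2936038 counts, a 2.41-fold higher mean. Reads on rRNA were not analysed here, and the labels do not give the number of reads sequenced, so the counts alone do not give the efficiency of depletion. Of the 19478 transcripts listed, 11469 and 11261 had at least 1 count in the undepleted libraries against 12055 and 12351 with riboPools. At the depth of the shallowest library, 1031889 counts, the expected numbers were 11371 and 11261 undepleted and 11303 and 11310 with riboPools, so the groups overlapped at equal depth. Transcripts with at least 100 counts numbered 2252 and 2059 undepleted and 3976 and 4643 with riboPools. Of the 1292 transcripts counted with riboPools alone, THAP9 had the most counts, 7 and 10, and no transcript reached 10 counts in both riboPools libraries. Conversely, 429 transcripts were counted in the undepleted libraries alone, with at most 4 counts in all. No transcript thus appeared or vanished above the level of a few counts. The 10 most counted transcripts took between 6.08% and 6.24% of the counts in all 4 libraries.

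Markers of the labelled cell line were present. All 15 erythroid leukaemia markers passed the filter on low counts, and summed to 1.31% and 1.27% of the counts undepleted and 1.30% and 1.29% with riboPools. The fetal globin HBG2, the most counted of them, had 4145 and 3923 CPM undepleted and 4145 and 4071 CPM with riboPools, where CPM is a count scaled to the total of its library. HBG2 and HBG1 have near-identical coding sequences, and how shared reads were counted is not given in the sources used here. Of 10 lymphocyte markers 5 had 0 counts in the 4 libraries and CD3D alone passed the filter, at 15.7 to 22.3 CPM. Of 8 monocyte markers 7 had 0 counts, and LYZ had 30.8 to 40.2 CPM. None of the 7 listed markers of HEK293, the other kind of line in the series, passed the filter.

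Few coding sequences differed. Among 8832 genes tested with edgeR's quasi-likelihood test, 7 were higher and 1 was lower with riboPools at a Benjamini-Hochberg adjusted p under 0.05, which is 0.0906% of the genes tested (0.0793% higher and 0.0113% lower). At an unadjusted p under 0.05 there were 512 genes, or 5.8%. The genes that rose were 6 mitochondrial mRNAs (MT-CO1, MT-ND4, MT-CO3, MT-ATP6, MT-CO2 and MT-ND5) and KCNH8, a voltage-gated potassium channel. The gene that fell was ABCA13, a large transporter of the ATP-binding cassette family. All genes tested had a median log2 fold change of -0.0016, and 4370 genes (49.5%) lay above 0. DESeq2 called 2 of these 8 genes, MT-CO1 and KCNH8. edgeR called 6 genes without the first undepleted library and 4 without the second riboPools library, and MT-CO1, MT-ND4 and KCNH8 were among them both times.

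**Figure D1:**
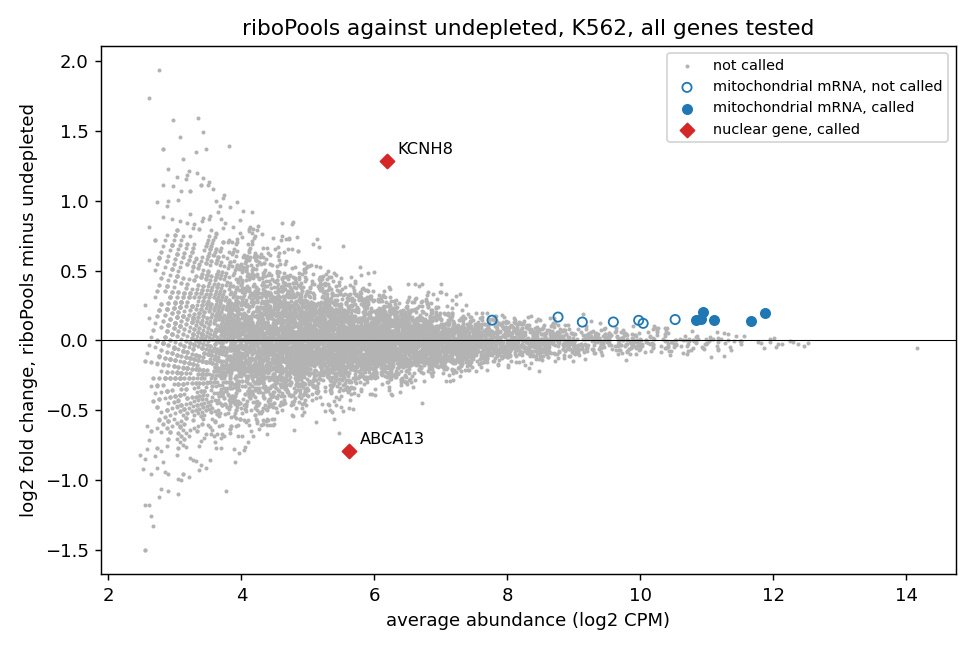
Log2 fold change, riboPools minus undepleted (vertical axis), against the average abundance in log2 CPM (horizontal axis) for the 8832 genes tested, 1 point per gene. Filled circles are the 6 called mitochondrial mRNAs, open circles the 7 that were not called, and diamonds the called nuclear genes KCNH8 and ABCA13. The mitochondrial mRNAs lie together between 0.12 and 0.21. KCNH8, at 1.28, lies far from the band of genes of like abundance, and ABCA13 lies at -0.79.

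The mitochondrial mRNAs were the one group of genes that stood together on the upper side. Their counts summed to 1.87% and 1.91% of all counts in the undepleted libraries and to 2.04% and 2.18% with riboPools, an 11.6% higher mean. Counts are shares of a library, so more mitochondrial footprints and fewer other footprints cannot be told apart. All 13 had both riboPools libraries above both undepleted ones, where 18.7% of all genes tested did, and 6 of the 13 passed the test, where 0.0793% of all genes were called higher. Their log2 fold changes ran from 0.12 to 0.21 with a median of 0.14, which is 8.84% to 15.3% for single mRNAs. This group was known from earlier results of these data, so the counts describe it and are no independent support.

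Of the subunits of cytochrome c oxidase, the last enzyme of the respiratory chain, MT-CO1 and MT-CO3 were the most counted of the 13. MT-CO1 (mitochondrial genome, 5904 to 7445) had 3382 and 3453 CPM undepleted and 3778 and 4065 CPM with riboPools. Both riboPools libraries were higher, and the gap of the groups exceeded the gap within either group. The log2 fold change was 0.20 ± 0.025 (SE; edgeR adjusted p 1.33e-06). MT-CO3 (9207 to 9990) had 3007 and 3048 CPM against 3185 and 3473 CPM, a log2 fold change of 0.14 ± 0.027 (adjusted p by edgeR 0.0118). MT-CO2 (7586 to 8269) had 1783 and 1795 CPM against 1897 and 2072 CPM, a log2 fold change of 0.15 ± 0.032 (adjusted p by edgeR 0.0211). In both, the second riboPools library lay further from the undepleted pair than the first. Without that library, MT-CO3 and MT-CO2 had log2 fold changes of 0.071 and 0.082 and were no longer called, and MT-CO2 also lost its call without the first undepleted library.

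Subunits of complex I, which takes up electrons from NADH, included 2 called mRNAs. MT-ND4 (10760 to 12137) had 1770 and 1798 CPM undepleted and 1996 and 2120 CPM with riboPools, and its log2 fold change of 0.21 ± 0.030 was the highest of the 13 (edgeR adjusted p 1.88e-05). MT-ND5 (12337 to 14148) had 2016 and 2088 CPM against 2156 and 2377 CPM, a log2 fold change of 0.15 ± 0.032 (adjusted p by edgeR 0.0282), and of 0.070 without the second riboPools library and 0.12 without the first undepleted one, where it was not called. The other complex I subunits, MT-ND1, MT-ND2, MT-ND3, MT-ND4L and MT-ND6, had log2 fold changes between 0.13 and 0.17 and were not called. MT-ND2 (4470 to 5511), the nearest of them to the threshold, had 920.3 and 944.9 CPM against 1004 and 1055 CPM (edgeR adjusted p 0.277). MT-ND6 (14149 to 14673) is the one mRNA of the 13 encoded on the opposite strand, and the least counted of them. It had 188 and 215 CPM undepleted and 217 and 226 CPM with riboPools, a log2 fold change of 0.14 with a 95% interval from -0.019 to 0.31, so that its lowest riboPools value lay just above its highest undepleted one. MT-CYB (14747 to 15887), the cytochrome b of complex III, had 1328 and 1398 CPM against 1466 and 1556 CPM and lay just outside the threshold (log2 fold change 0.15 ± 0.034, edgeR adjusted p 0.0513).

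The mitochondrial subunits of ATP synthase come from overlapping reading frames. MT-ATP6 (8527 to 9207) had 1682 and 1725 CPM undepleted and 1856 and 1912 CPM with riboPools, a log2 fold change of 0.14 ± 0.030 (adjusted p by edgeR 0.0188). It was not called without the first undepleted or the second riboPools library, with a log2 fold change of 0.12 each time. MT-ATP8 (8366 to 8572) had 957.3 and 1019 CPM against 1060 and 1091 CPM, a log2 fold change of 0.12 ± 0.038 that was not called (edgeR adjusted p 0.640). In both genes the riboPools libraries lay above the undepleted ones without overlap. The last 46 bases of MT-ATP8 are also the first 46 bases of MT-ATP6, and MT-ND4L shares its last 7 bases with MT-ND4. A footprint there can be counted for either gene or for both, and the counting rule is not given in the sources used here, so these neighbours are not wholly separate measurements. The stretches are shown because they limit how far the paired values can be told apart, 5′ to 3′ on the plus strand of GRCh38, with the shared bases in capitals and the start codon of the second frame as their first letters. They were read from the GENCODE 29 transcripts.
MT-ATP8 and MT-ATP6, chrM:8513-8572: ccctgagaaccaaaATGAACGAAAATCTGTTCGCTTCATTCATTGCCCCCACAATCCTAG
MT-ND4L and MT-ND4, chrM:10737-10766: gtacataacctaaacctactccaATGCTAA

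**Figure D2:**
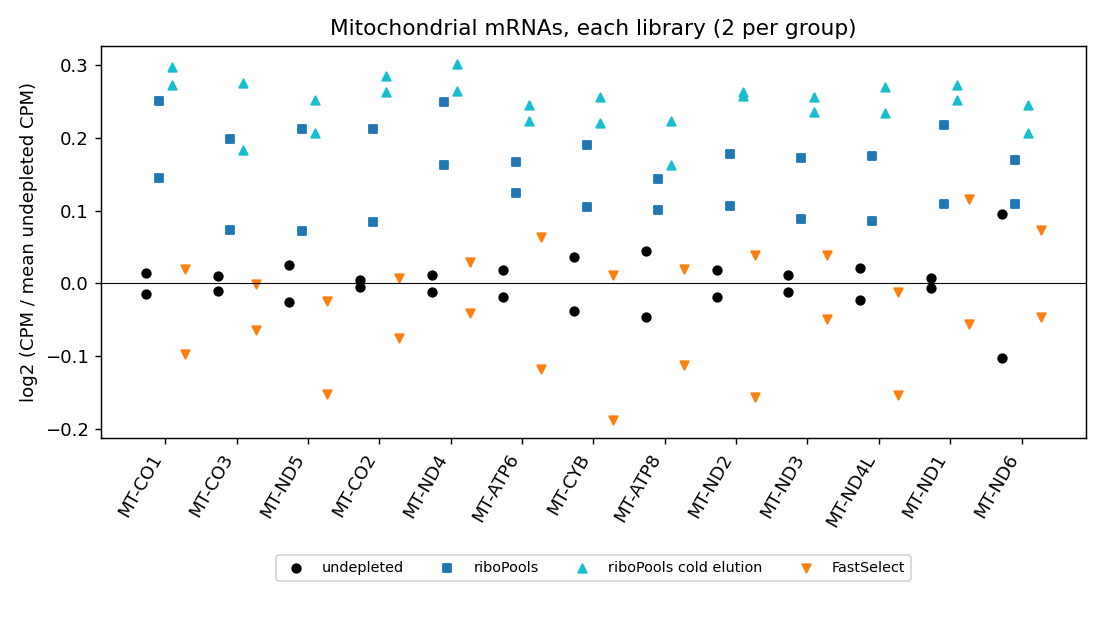
Log2 ratio of the CPM of each library to the mean undepleted CPM (vertical axis) for the 13 mitochondrial mRNAs (horizontal axis), 2 libraries per group. Circles are undepleted, squares riboPools, upward triangles riboPools with cold elution and downward triangles FastSelect. For all 13 mRNAs both squares lie above both circles, and the second riboPools library is the higher square in each.

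Per kilobase of coding sequence, the 13 differed widely in level under both conditions. MT-ATP8 had the highest mean, 4845 CPM per kilobase undepleted and 5272 with riboPools, and MT-ND6 the lowest, 384 and 423. MT-CO3 had 3861 and 4246 CPM per kilobase and MT-ND1 had 415 and 465. The span of levels was far wider than any difference between the groups.

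The shift was not uniform between libraries of 1 group. Within riboPools, all 13 mitochondrial mRNAs were higher in library 2 than in library 1, with a median log2 ratio of 0.087. Between the undepleted libraries 11 of 13 were higher in library 2, with a median of 0.030. Among 875 nuclear genes counted at least as deeply as the least counted mitochondrial mRNA, the same ratios had medians of -0.0026 and 0.0043. The mitochondrial mRNAs thus moved as a block between the riboPools replicates too, by a median of 0.087 against the 0.14 between the groups. The 4 pairings of a riboPools with an undepleted library gave medians of 0.13, 0.088, 0.22 and 0.19, and all 13 mRNAs were positive in each. edgeR tests genes 1 by 1 and does not take this shared movement into account. What moved the mitochondrial share between replicates was not tested.

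Nuclear genes of like depth did not share this position. Those 875 genes had a median log2 fold change of -0.0071 and ranged from -0.22 to 0.19, and 178 of them (20.3%) had both riboPools libraries above both undepleted ones. Of the 875, 34 had a log2 fold change at or above the lowest mitochondrial one and 16 (1.83%) at or above the mitochondrial median. The mitochondrial coding sequences have a GC content of 39.7% to 47.7%. The 1113 nuclear genes in that GC range that averaged 100 counts or more had a median of -0.018, with 1 of them called.

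The nuclear-encoded partners of the mitochondrial subunits were set beside them. Of all genes tested 0.0906% were called, so 0 calls in lists of this size, here and below, say little about their members. Of 34 nuclear subunits of complexes III to V, 0 were called, 19 were positive and the median log2 fold change was 0.0074. Their summed share was 1.46% and 1.47% undepleted and 1.47% and 1.48% with riboPools. Of the 34, 12 lay above and 6 below both undepleted libraries, where 18.7% and 17% of all genes tested did. An unadjusted edgeR p under 0.05 was found for 7 of the 34, in either direction, against 5.8% of all genes tested. ATP5B, the catalytic beta subunit of ATP synthase and the most counted, had 1827 and 1782 CPM undepleted and 1720 and 1760 CPM with riboPools (log2 fold change -0.056 ± 0.030, edgeR adjusted p 0.863). UQCR11, a small complex III subunit, had the highest log2 fold change at 0.25 ± 0.12 and COX8A, a subunit of cytochrome c oxidase, the lowest at -0.19 ± 0.072, with edgeR adjusted p of 0.842 and 0.735. Of 37 nuclear complex I subunits, 0 were called, 24 were positive and the median was 0.032. NDUFB3 had the highest log2 fold change, 0.26, and NDUFB8 the lowest, -0.16. Of 78 proteins of the mitochondrial ribosome, 0 were called, 40 were positive and the median was 0.0076. Their most counted member, MRPS18B, had 289 and 296 CPM undepleted and 325 and 288 CPM with riboPools, which overlap. No nuclear list for the respiratory chain or its ribosome lay near the mitochondrial median of 0.14.

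KCNH8 had the largest called difference. Its coding sequence (ENST00000328405.6; GRCh38 chromosome 3, 19148454 to 19535646, plus strand) had 28.2 and 43.6 CPM undepleted, from 32 and 45 counts, and 106 and 71.5 CPM with riboPools, from 243 and 210 counts. Both riboPools libraries were higher and each group spread widely around its mean. The fold change was 2.44, a log2 fold change of 1.28 with a 95% interval from 0.91 to 1.66 (edgeR adjusted p 1.88e-05). The fit estimated the spread largely across genes, so this interval may be too narrow for the gap within each group. KCNH8 was placed on the list of genes to name because of its counts in other libraries of the series. FAM53A and CCNC, listed for the same reason, did not stand out here. FAM53A had 0 counts in both undepleted libraries and 2 and 5 counts with riboPools. CCNC, which encodes cyclin C, had 69.6 and 73.7 CPM against 64.6 and 74.2 CPM, which overlap. The tables give 1 total per coding sequence, so where within KCNH8 the reads lie was not analysed here.

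ABCA13 (ENST00000435803.5; chromosome 7, 48171460 to 48647495, plus strand) had 73.1 and 62.0 CPM undepleted and 31.9 and 45.0 CPM with riboPools. Both riboPools libraries were lower, and it fell by 42.3% (log2 fold change -0.79 ± 0.17, edgeR adjusted p 0.0211). It was not called without the first undepleted or the first riboPools library, where its log2 fold change was -0.67 and -0.59. Cold elution and FastSelect libraries had 25.5 and 40.5 CPM and 36.3 and 38.1 CPM, so ABCA13 was highest in both undepleted libraries of the 8.

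**Figure D3:**
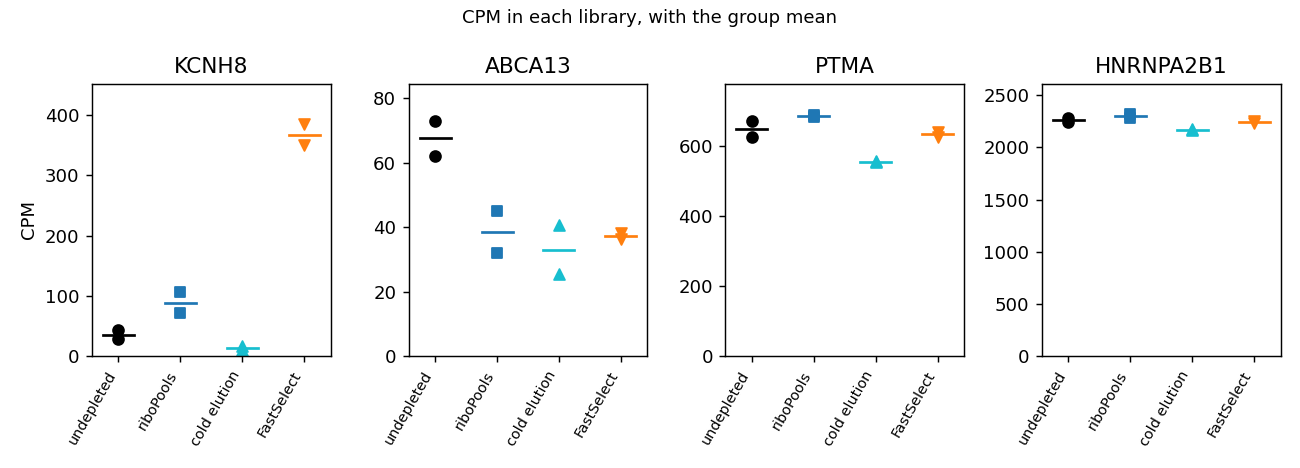
CPM (vertical axis, starting at 0) of KCNH8, ABCA13, PTMA and HNRNPA2B1 in each library, 2 points per group, with the group mean as a line, for undepleted, riboPools, riboPools with cold elution and FastSelect. KCNH8 is lowest with cold elution and highest with FastSelect, ABCA13 is highest undepleted, and PTMA is lowest with cold elution.

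Other genes had larger fold changes than the mitochondrial mRNAs without passing the test. Among genes that averaged 100 counts or more and showed no overlap between the groups, the largest positive values after KCNH8 were those of SFT2D2 (0.49), CCDC137 (0.48), AGFG1 (0.47), RNF5 (0.41), MRPL49 (0.40), KIF15 (0.40) and AP000721.1 (0.40). RNF5, a ubiquitin ligase of the ER membrane, had 108 and 95.9 CPM undepleted and 134 and 138 CPM with riboPools (edgeR adjusted p 0.274), the lowest adjusted p of these 7. KIF15 is a mitotic kinesin and MRPL49 a protein of the mitochondrial large ribosomal subunit, and their edgeR adjusted p were 0.770 and 0.651. AP000721.1 shares a coding exon of 114 bases (chromosome 11, 63974681 to 63974794, plus strand) with COX8A, and the values of both are uncertain because the counting of shared reads is not stated.

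The largest negative values were those of ZC3H18 (-0.45), ECT2 (-0.39), ATXN10 (-0.39), NAXE (-0.39), RDH10 (-0.38), NBEAL2 (-0.37), CHML (-0.36) and POLR3K (-0.36). ZC3H18, a zinc finger protein that links the nuclear cap-binding complex to RNA decay, had 127 and 126 CPM undepleted and 97.7 and 89.2 CPM with riboPools. Its edgeR adjusted p was 0.150. ECT2 is a guanine nucleotide exchange factor that acts in cytokinesis, NAXE is an epimerase that repairs NADHX, and POLR3K is a subunit of RNA polymerase III. Their edgeR adjusted p lay between 0.735 and 0.766. These 15 genes are named by the size of their values, and none is called changed.

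Ribosomal protein genes leaned slightly to the lower side and none passed the test. Of 47 large-subunit genes 34 were negative, 18 had both riboPools libraries below both undepleted ones and 4 above, and the median log2 fold change was -0.022. Over all genes tested, 17.0% lay below and 18.7% above both undepleted libraries. Without the second undepleted library the median was -0.0069. RPL19 had 2551 and 2556 CPM undepleted and 2392 and 2348 CPM with riboPools, a change of -7.47% that lay just outside the threshold (log2 fold change -0.11 ± 0.026, edgeR adjusted p 0.0527). RPL4, the most counted, had 3809 and 3745 CPM against 3675 and 3607 CPM, and RPLP2, a protein of the ribosomal stalk, had the highest log2 fold change at 0.086. Of 33 small-subunit genes 20 were negative, 8 lay below and 3 above, and the median was -0.0078. RPS15 had the highest value of this subunit, 0.090, and RPS18, the most counted, had -0.0093. The 47 and 33 genes summed to 7.78% and 7.83%, and 5.35% and 5.41%, of the undepleted counts, and to 7.72% and 7.68%, and 5.36% and 5.31%, of the riboPools counts. Ribosomal protein genes have many near-identical copies, so their values are uncertain.

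None of the other translation genes listed passed the test. Of 6 elongation factors 0 were called, 2 were positive and 4 negative, and the median was -0.024. EEF1A1, which brings aminoacyl-tRNA to the ribosome and was the most counted gene here, had 18317 and 18572 CPM undepleted and 17962 and 17725 CPM with riboPools. Its change of -3.51% came with no overlap between the groups (log2 fold change -0.052 ± 0.016, edgeR adjusted p 0.640). Of 29 initiation factors 0 were called, 10 were positive and 19 negative, and the median was -0.028. EIF4A1, the helicase that unwinds mRNA before scanning, had 1689 and 1690 CPM against 1650 and 1674 CPM. EIF1AX had the highest log2 fold change of that list at 0.20 and EIF3F the lowest at -0.13. Both riboPools libraries of EEF1A1 and of EIF4A1 lay below both undepleted ones, by small steps.

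The lists of erythroid and histone genes held no called gene, and single members ranged more widely than the medians. Of 9 globin genes tested 0 were called, and the median log2 fold change was -0.045, with a range from -0.21 to 0.39. Their sum was 1.34% and 1.30% of counts undepleted and 1.32% and 1.31% with riboPools, which overlap. Of 9 haem synthesis enzymes 0 were called, with a median of 0.00034 and a range from -0.27 to 0.35. The 4 of them that averaged 100 counts or more had a median of -0.071, with UROD at 0.082 and CPOX at -0.25. Of 68 replication-dependent histone genes 0 were called, 24 lay above and 12 below both undepleted libraries, the median was 0.014 and the range ran from -0.64 to 0.25. Over all genes tested, 18.7% lay above and 17% below. HIST1H1C, the most counted linker histone, had 5298 and 5323 CPM undepleted and 5258 and 5187 CPM with riboPools. Histone genes are also near-identical within families, and their single values are uncertain.

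Chaperones, glycolytic enzymes and nucleolar proteins gave 0 calls as well, where 0.0906% of all genes tested were called. The 8 CCT chaperonin subunits, which fold actin and tubulin, had a median of -0.0011 and ranged from -0.033 to 0.060. The 14 heat-shock chaperones had a median of 0.0046, the 15 ER chaperones -0.0071, the 15 glycolytic enzymes -0.026 and the 21 nucleolar ribosome-assembly proteins -0.026. HSP90AA1, with the lowest value of the heat-shock list, had 2714 and 2673 CPM undepleted and 2544 and 2597 CPM with riboPools (log2 fold change -0.070, edgeR adjusted p 0.735). GAPDH had 4909 and 5114 CPM against 4986 and 4969 CPM, and CANX, an ER lectin chaperone, had 1076 and 1084 CPM against 1089 and 1077 CPM. Both overlap between the groups.

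**Figure D4:**
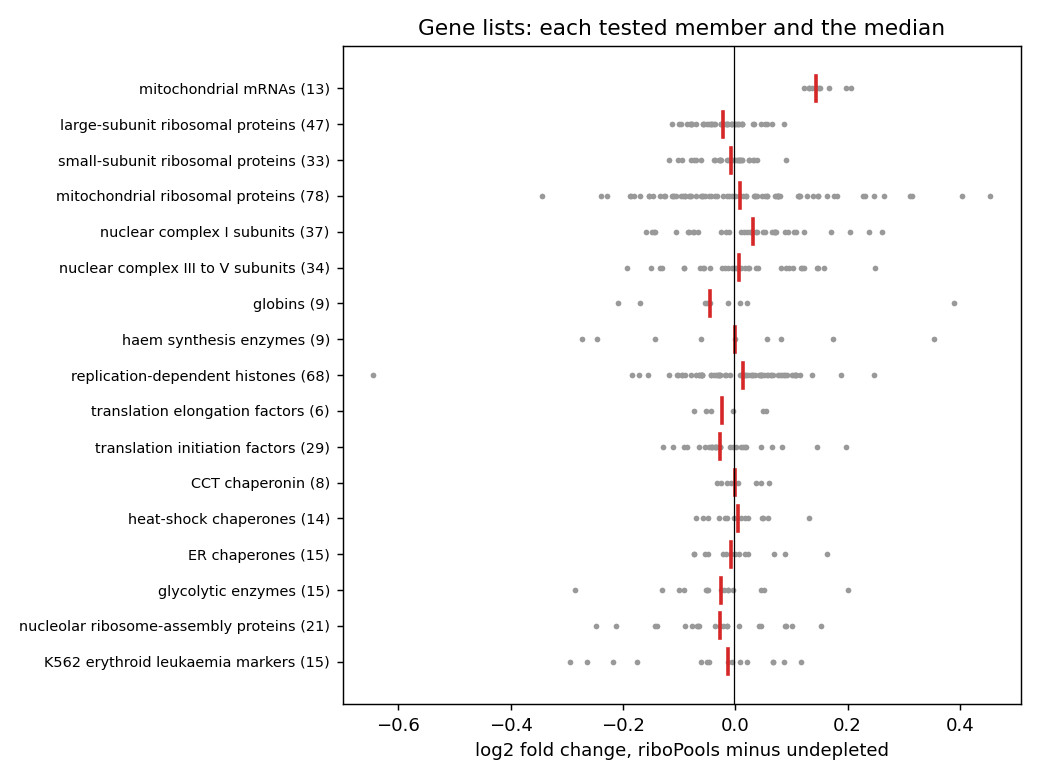
Log2 fold change, riboPools minus undepleted (horizontal axis), of each tested member of 17 gene lists (grey points, number of members in brackets), with the list median as a red bar. The mitochondrial mRNAs lie wholly to the right of 0 with a median of 0.14, and the medians of the other lists lie between -0.045 and 0.032.

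A p that misses the threshold does not show equality, so the 95% intervals of the log2 fold changes were counted. For 4956 of 8832 genes (56.1%) the interval lay within 1.5-fold in either direction, and for 7610 (86.2%) within 2-fold. Depth set this bound. All 304 genes that averaged 1000 counts or more were bounded within 1.5-fold and 218 of them within 1.1-fold, and all 906 genes from 300 to under 1000 counts were bounded within 1.5-fold. Of 2189 genes from 100 to under 300 counts, 2126 (97.1%) were bounded within 1.5-fold. Of 5433 genes below 100 counts, 1620 (29.8%) were so bounded, and for the others a 1.5-fold difference lay within the interval at this depth. With DESeq2, whose intervals were wider, the number of genes bounded within 1.5-fold was 3112.

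The spread of all genes was also measured, as the SD across genes of the log2 CPM ratio of 2 libraries with the Poisson counting variance taken off. Over 3399 genes that averaged 100 counts or more, the 4 riboPools to undepleted pairs gave 0.050 to 0.063, the undepleted replicates 0.042 and the riboPools replicates 0.036. The 4 pairs share libraries and are not independent. For genes from 100 to under 300 counts the mean over the 4 pairs was 0.064, against 0.047 and 0.043 in the replicate pairs. From 300 to under 1000 counts it was 0.032, against 0.034 and 0.015, so there the mean did not exceed the undepleted replicates, while the single pairs ran from 0.025 to 0.045. From 1000 counts upwards it was 0.045, against 0.014 and 0.019. Without the mitochondrial mRNAs this last value was 0.034, against 0.016 and 0.0080, an exclusion chosen after seeing the data. By a scaled median absolute deviation, the value over 3399 genes was -0.066, below 0 because that deviation was smaller than the counting error. By the same measure within the classes the mean over the 4 pairs was 0.012, 0.0082 and 0.027 from the lowest counts to the highest. Single pairs ran from -0.036 to 0.050, from -0.030 to 0.027 and from 0.011 to 0.043, so only the highest class lay wholly above 0.

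**Figure D5:**
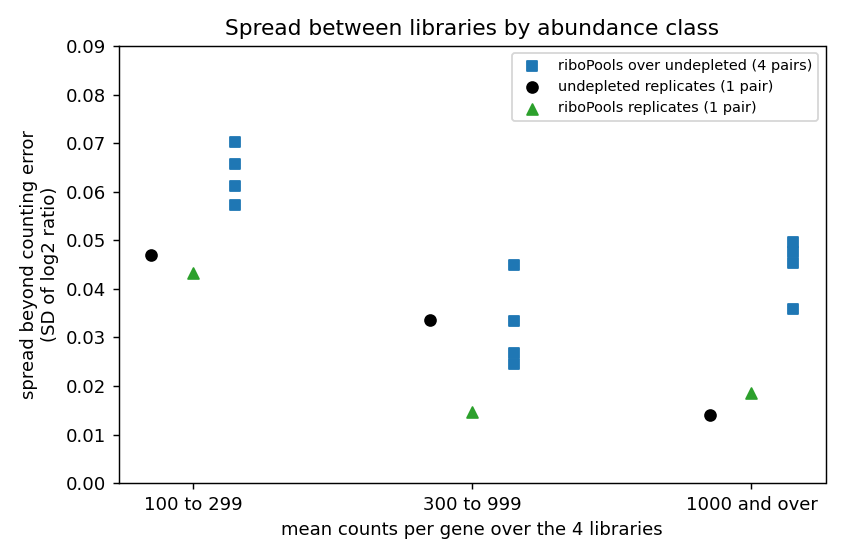
Spread beyond counting error, as an SD of the log2 ratio across genes (vertical axis), for 3 classes of mean count per gene (horizontal axis). Squares are the 4 riboPools to undepleted pairs, the circle the undepleted replicates and the triangle the riboPools replicates. The squares lie above both replicate pairs from 100 to under 300 and from 1000 counts, and on both sides of the undepleted pair from 300 to under 1000 counts.

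Sequence features that the comparison did not use were then set beside the fold changes. Over 3271 nuclear genes that averaged 100 counts or more, the median log2 fold change by quintile of coding GC content ran from -0.021 in the lowest (32.6% to 43.5% GC) through -0.015, -0.0084 and -0.0063 to 0.024 in the highest (58.7% to 77.4% GC). Across these genes, which are not independent replicates, the Spearman correlation was 0.13 for GC content and -0.043 for coding length. The lowest and highest quintiles spanned 0 between their quartiles, from -0.096 to 0.054 in the lowest and from -0.054 to 0.10 in the highest. Of 18948 coding sequences searched, 8 shared a run of 20 bases, on either strand, with a 5S, 5.8S or mitochondrial rRNA, and these had 0 counts in the 4 libraries. The 18S and 28S rRNAs were not searched here, nor were the probes.

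riboPools with the cold elution differed from the standard elution at 4 of 10023 genes tested (0.0399%; edgeR adjusted p under 0.05), 3 higher and 1 lower (0.00998%) with the standard elution. KCNH8 had 16.5 and 10.9 CPM with cold elution against the 106 and 71.5 CPM above, 6.36-fold higher with the standard elution (log2 fold change 2.67, edgeR adjusted p 8.96e-15). PTMA, the acidic nuclear protein prothymosin alpha (ENST00000341369.11; chromosome 2, 231708516 to 231713536), had 688 and 682 CPM with the standard and 557 and 553 CPM with the cold elution. Its log2 fold change was 0.31 ± 0.033 (edgeR adjusted p 1.97e-07). Against undepleted, at 624 and 672 CPM, PTMA had a log2 fold change of 0.077 that was not called. PTMA has near-identical copies in the genome, and its values are uncertain. HNRNPA2B1, an RNA-binding splicing factor, was 6.28% higher with the standard elution (log2 fold change 0.088, edgeR adjusted p 0.00699), and it was not called when any 1 of the 4 libraries was left out. PTMA, HNRNPA2B1 and the YDJC of the next comparison are named because they were called, after their values were seen.

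The mitochondrial mRNAs lay on the other side of that comparison. MT-CO2 had 2180 and 2147 CPM with cold elution and was lower with the standard elution (log2 fold change -0.12, edgeR adjusted p 0.00646). All 13 were negative, with a median of -0.083, and their summed share was 2.28% and 2.22% with cold elution against 2.04% and 2.18% with the standard elution. MT-CO2 was not called without the first riboPools library. Without that library 2 genes differed between the elutions, without the second riboPools library 6, 4 of them mitochondrial, and without the second cold elution library 9, 6 of them mitochondrial. The second standard library, at 2.18%, lay nearer to the cold elution libraries than to the first standard one. This comparison and the one with undepleted share the standard riboPools libraries. Without the low-count filter 0 genes differed between the elutions by edgeR, with 456 at an unadjusted p under 0.05, and DESeq2 called KCNH8 and PTMA alone.

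FastSelect, which blocks reverse transcription of rRNA and uses no beads, was applied to 2 libraries of the same table and size range. The Ribo-Zero Plus libraries of that table were kept out of the fits. riboPools differed from it at 12 of 9522 genes tested (0.126%; edgeR adjusted p under 0.05), 11 higher and 1 lower (0.0105%) with riboPools. The 11 were 10 mitochondrial mRNAs and YDJC (log2 fold change 0.27, edgeR adjusted p 0.0326), which was not called when any 1 of the 4 libraries was left out. MT-CO1, at 3464 and 3194 CPM with FastSelect, had a log2 fold change of 0.24 (adjusted p by edgeR 1.31e-22), and all 13 mitochondrial mRNAs were positive with a median of 0.19. Their summed share with FastSelect was 1.91% and 1.76%, and all 13 were lower in its second library, with a median log2 ratio of -0.13. The gene that was lower with riboPools was KCNH8, at 350 and 385 CPM with FastSelect (log2 fold change -2.09, edgeR adjusted p 8.55e-193). In this fit the spread was pooled across genes, so its p-values do not reflect how far the replicates of a single gene lay apart. With riboPools, KCNH8 had 106 and 71.5 CPM. KCNH8 thus differed from the standard riboPools libraries in both other sets, lower with cold elution and higher with FastSelect. Without the second riboPools library 7 genes differed from FastSelect, 4 of them mitochondrial, and DESeq2 called KCNH8 alone.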

How the data were processed

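The deposited values are the authors' raw counts of reads on each coding sequence, 1 transcript per row, per the file headers. Per the submitters' processing notes, CASAVA 1.8, STAR and the build GRCh38 were used. Read filters, duplicates and the rule for shared reads are not given in the sources used here. PCR reads are not independent molecules. The intervals come from the edgeR fit and cover counting error and a spread between these libraries that is estimated largely across genes. A gene whose own replicates lie further apart, such as KCNH8, may have too narrow an interval. Positions and coding sequences came from GENCODE 29, which matched 97.5% of the transcripts.

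Counts were tested with edgeR 4.0.16 in R 4.3.3 (TMM, filterByExpr with a minimum count of 10, quasi-likelihood test, Benjamini-Hochberg adjustment over all genes tested, threshold 0.05). A comparison's own 4 libraries entered its fit, without the Ribo-Zero Plus libraries. A standard error is the size of the log2 fold change divided by the square root of F. A permutation of 2 against 2 libraries cannot go below p 0.333. DESeq2 1.42.0 was an alternative. The fits were also run on simulated counts, with the same dispersion for every gene and no shared movement of the mitochondrial mRNAs. That differs from these data, so the simulation does not bear on the genes called here. Replicate pairs differed slightly beyond sampling noise (chi-square per degree of freedom 1.05 to 1.12). All libraries of these pairs were kept.

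The genes named are those called, the 8 largest rises and falls without overlap at a mean of at least 100 counts, the 13 mitochondrial mRNAs, KCNH8, CCNC, FAM53A, and each list's most counted and extreme members. Comparison, members and lists were chosen with earlier results of these data known. ATP synthase symbols were matched through RefSeq synonyms, and PKM and WT1 were not matched. Some items are not reported here.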

Additional observations from a re-analysis of the deposited data

Results flagged for a closer look

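Genes whose riboPools value differed from that of another depletion of the same table, by edgeR's test of that difference, were taken up for a closer look. Against cold elution, KCNH8 (log2 fold change 2.67), PTMA (0.31) and HNRNPA2B1 (0.09) were higher and MT-CO2 (-0.12) was lower with the standard elution. The libraries of both elutions did not overlap for these 4 genes. The genes were picked by a test on the same libraries, so this is no independent support. Against FastSelect, KCNH8 (-2.09) was lower with riboPools. The higher ones were MT-CO1 (0.24), MT-CYB (0.24), MT-ND5 (0.23), MT-ND4L (0.22), MT-ND4 (0.21), MT-ND2 (0.20), MT-CO2 (0.19), MT-ATP6 (0.17), MT-ATP8 (0.17), MT-CO3 (0.17) and YDJC (0.27). The mitochondrial share also differed between both FastSelect libraries (1.91% and 1.76%), and its part in these differences was not tested. No group was large enough for a test of single libraries.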

How the results depend on the processing

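The 8 genes called between riboPools and undepleted became 2 with DESeq2, 11 with a replicate block, 11 at a mean of at least 50 counts and 8 to 10 under the other scalings, filters and fits. Leaving out each library gave 4 to 9, with 4 without riboPools replicate 2. MT-CO1 and KCNH8 were called in all 12 alternatives. Deviations of libraries with the same replicate number had correlations from -0.011 to 0.015. Counting error made up most of these deviations (SD between the undepleted replicates 0.190, of counting 0.185). The correlations thus cannot decide whether the libraries were paired. Of 923 values of named genes under these alternatives, 0 reversed once called, 15 lost and 15 gained the call. Of the same 923, 18 changed sign and were never called. The mitochondrial median lay between 0.10 and 0.19 with each library left out. Against cold elution the 4 calls became 2 with DESeq2, 2 with the replicate block, 0 without the filter, where 456 genes had an unadjusted p under 0.05, and 2 to 9 with each library left out. Against FastSelect the 12 calls became 1 with DESeq2, 7 with the replicate block and 7 to 13 with each library left out. The causes were not tested. The number of genes bounded within 1.5-fold, 4956, became 3112 with DESeq2. The spread of 0.055 became 0.041 at a mean of at least 500 counts and 0.061 at 50 counts. By the scaled median absolute deviation it was -0.066. Within each count class the mean by that deviation was above 0, but single pairs under 1000 counts fell to -0.036 and -0.030. Below 100 counts, depth limits what can be bounded.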
